A study of Mus musculus with 10 samples.

Results

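The glycosaminoglycan genes of this report are 41 mouse genes, chosen by symbol, whose products build, sulfate or trim the sugar chains of proteoglycans and hyaluronan. All 41 have a row in the count table, which holds 25239 gene symbols, and all 41 passed the filter on low counts. The libraries came from cells sorted out of the calvarial suture, where the flat bones of the head meet in a fibrous joint; the mice were 7 days old. The labels name the 2 sorted populations DDR2-plus and PSC, do not spell out PSC and do not describe the gates, and number 5 libraries in each. The titles use the same numbers, Sut1 to Sut5, in both populations. They do not say whether a shared number means the same animals. All samples are labelled wild type, while the extraction protocol speaks of Ctsk-Cre animals (n = 5), in which the promoter of the cathepsin K gene drives the recombinase. No other allele or agent is named, and the labels do not say whether each library came from 1 animal, so the p-values measure the spread between these libraries, which may in part be technical.

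A glycosaminoglycan is a long sugar chain that is started on a serine of a core protein by a short linker, after which the first hexosamine decides between chondroitin or dermatan sulfate on one side and heparan sulfate on the other. Chains are built from UDP-sugars and are then sulfated with the activated sulfate PAPS, and transporters bring in the UDP-sugars and the sulfate. Hyaluronan differs, since it has no core protein and no sulfate and is spun out at the cell membrane. Cartilage is rich in chondroitin sulfate, carried on aggrecan, whereas dermatan sulfate is typical of fibrous tissue and heparan sulfate binds growth factors at every cell surface.

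Counts were 49843470 to 62021992 per DDR2-plus library and 43419129 to 58270419 per PSC library, so that 1 count was worth 0.0146 to 0.0249 CPM (the deposited counts divided by the library's effective size, with edgeR's TMM factors, which correct for differences in RNA composition). Ddr2, the gene of the receptor for which one population is named, was not higher in that population at the mRNA level: it was 1.36-fold lower, at 112 ± 3.56 against 152 ± 10.7 CPM (edgeR adjusted p = 0.000165). Ctsk stood at 107 ± 15.2 and 294 ± 14.97 CPM. All 14 cartilage markers were higher in DDR2-plus, with a summed level of 104718 to 144064 CPM there against 13961 to 32547 CPM in PSC, and 10 of 11 osteoblast markers were lower (66458 to 107915 against 307488 to 338956 CPM). All 6 tendon markers were lower (133 to 253 against 2572 to 3146 CPM), as were 5 of 6 fibroblast markers. Markers of nerve and pineal tissue were higher in DDR2-plus too: 5 of 6 neuronal genes (50.7 to 129.9 against 6.78 to 12.8 CPM), all 6 glial genes (208 to 690.4 against 7.33 to 40.7 CPM) and all 5 pineal and photoreceptor genes (132 to 206 against 0 to 1.41 CPM), with Slc17a6, Cdhr1 and Aanat at 0 counts in all PSC libraries. Summed levels in DDR2-plus and in PSC were 775 to 989.7 and 1493 to 1939 CPM for fibroblast, 12.6 to 26.7 and 5.11 to 16.9 CPM for blood, 21.6 to 41.9 and 17.9 to 40.4 CPM for endothelial and 558 to 719.8 and 377 to 447 CPM for pericyte markers. They were 552 to 859 and 145 to 386 CPM for osteoclast, 17.6 to 43.3 and 8.86 to 22.04 CPM for muscle and 20.1 to 53.2 and 4.12 to 8.91 CPM for epithelial markers, with Dcstamp at 0 counts in PSC. Higher and lower calls numbered 2 and 0 of 5 tested blood, 2 and 2 of 5 endothelial, 1 and 3 of 5 pericyte, 1 and 1 of 2 osteoclast, 1 and 0 of 4 muscle and 3 and 0 of 3 epithelial markers. Most of the pericyte sum was Cspg4, which is also a chondroitin sulfate core protein gene; without it the sum was 11.2 to 29.4 CPM in DDR2-plus and 69.04 to 129.6 CPM in PSC. Most of the osteoclast sum was Mmp9, at 674 against 243 CPM, whereas Acp5 was lower in DDR2-plus, at 14.5 against 27.1 CPM. Calcr, Dcstamp and Ocstamp were not tested. Slc17a6, Rbp3, Crx, Cdhr1, Tph1 and Aanat had 0 to 59 counts over all PSC libraries. Snap25, Syt1, Aqp4 and Krt18 had 9 to 33. All of these passed the filter on low counts through DDR2-plus alone, so they could only be called higher. The part of any of these cell types in the results that follow was not tested. In such bulk libraries, a larger share of one cell type and more RNA of a gene per cell cannot be told apart.

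Of the 41 genes, 14 were higher and 7 lower in DDR2-plus, and 20 did not pass the threshold (edgeR quasi-likelihood test, Benjamini-Hochberg adjusted p of 0.05 over 15416 tested genes). The members called higher were 34.1% of the set, where 20.1% of all tested genes were called higher, and those called lower 17.1%, where 19% of all tested genes were. In either direction 21 members passed, where 39.1% of all tested genes did. Changes of at least 2-fold were found in 8 members upward (19.5%, background 9.94%) and 1 downward (background 6.01%). The 2 populations did not overlap in 13 members that were higher (31.7%, background 15.6%) and in 3 that were lower (7.32%, background 14.6%), 16 in all (background in either direction 30.1%). The median log2 fold change of the set was -0.05, against 0.04 over all tested genes. Scaled by library size alone, which moved that overall median to 0.31, 19 members were higher and 4 lower (46.3% and 9.76% of the set), where 35.2% and 9.98% of all tested genes were. The movement was unequal between branches: the plot of fold changes by branch shows all 5 genes of precursor supply above zero, and 1 gene of the linker branch and 1 of the chondroitin chain branch far from the others of their branch.

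**Figure D1:**
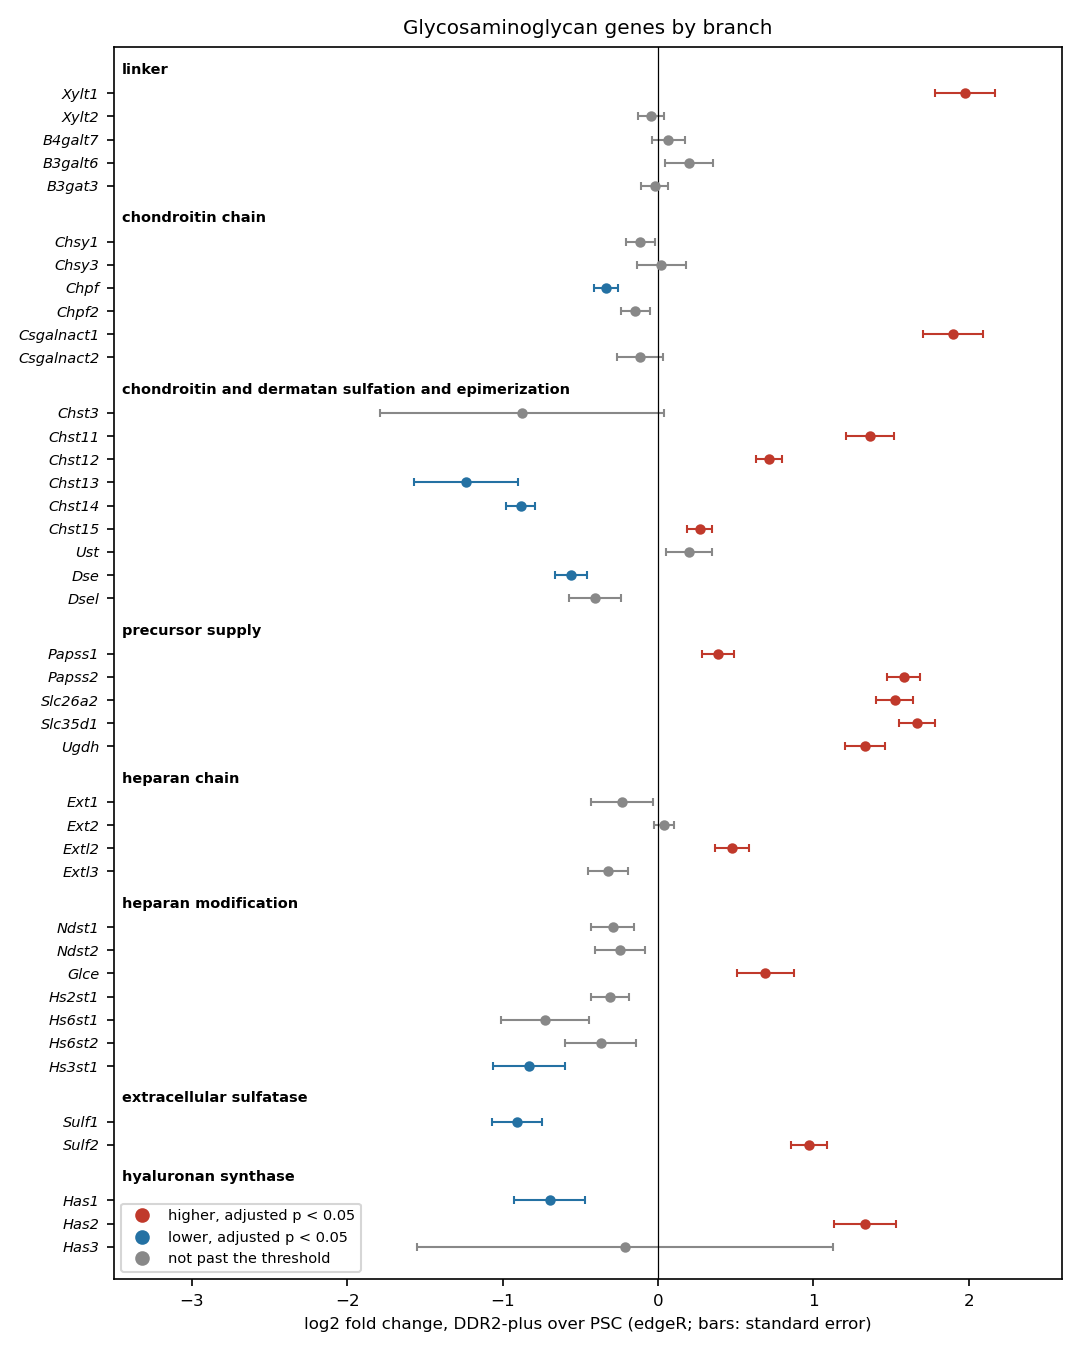
Log2 fold change of each of the 41 genes, DDR2-plus over PSC (points, horizontal axis; bars are standard errors of the edgeR fit over 5 libraries a group), grouped by branch. Red points passed as higher (14 genes), blue as lower (7 genes), grey did not pass (20 genes), and the widest bar belongs to Has3, which is near 0 CPM.

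The genes that supply sugar and sulfate donors were the branch that moved as a whole. All 5 rose, with a median log2 fold change of 1.52, and in each of them the lowest DDR2-plus library lay above the highest PSC library. Ugdh (mm10 chromosome 5, 65413221 to 65435949, minus strand), whose enzyme oxidizes UDP-glucose to UDP-glucuronic acid, a building block of chondroitin, heparan and hyaluronan, is the first of these. Ugdh was at 471, 562, 342, 491 and 476 CPM in DDR2-plus libraries 1 to 5 and at 214, 213, 172, 168 and 161 CPM in PSC libraries 1 to 5. It was 2.52-fold higher (log2 fold change 1.33, SE 0.129; edgeR adjusted p = 6.16e-06). DDR2-plus 3 was the lowest of its group and still lay above every PSC library.

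Slc35d1 (chromosome 4, 103170649 to 103215164, minus strand) encodes the carrier that brings UDP-glucuronic acid and UDP-N-acetylgalactosamine into the endoplasmic reticulum, and its loss is known to cause a skeletal dysplasia with short chondroitin chains. In DDR2-plus 1 to 5 Slc35d1 measured 71.1, 73.99, 56.1, 77.6 and 73.5 CPM, and in PSC 1 to 5 it measured 23.3, 18.96, 19.1, 24.5 and 24.9 CPM. The rise was 3.18-fold (log2 fold change 1.67, SE 0.116; edgeR adjusted p = 7.90e-07), the largest in this branch. Slc26a2 (chromosome 18, 61192919 to 61211612, minus strand) encodes the sulfate transporter of the cell membrane that is mutated in diastrophic dysplasia. Levels of Slc26a2 were 150.5, 173, 128, 166 and 138 CPM in DDR2-plus 1 to 5 and 54.3, 56.9, 53.7, 58.4 and 39.3 CPM in PSC 1 to 5. It was 2.87-fold higher (log2 fold change 1.52, SE 0.118; edgeR adjusted p = 1.29e-06), with PSC 5 below the other PSC libraries.

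PAPS, the sulfate donor, is made by a pair of synthases. Papss2 (chromosome 19, 32595790 to 32667187, plus strand), the form linked to cartilage and to a spondyloepimetaphyseal dysplasia, took these values. The DDR2-plus libraries 1 to 5 held Papss2 at 256, 287, 203, 273 and 267 CPM, the PSC libraries 1 to 5 at 79.95, 83.1, 74.1, 96.6 and 95.95 CPM. It was 2.99-fold higher (log2 fold change 1.58, SE 0.106; edgeR adjusted p = 6.22e-07). Papss1 was at 117, 121, 112, 134 and 132 CPM in DDR2-plus libraries 1 to 5 and at 84.4, 109, 76.9, 93.00 and 108 CPM in PSC libraries 1 to 5. Papss1 (chromosome 3, 131564768 to 131643671, plus strand), the more widely expressed synthase, thus rose less, 1.31-fold (log2 fold change 0.39, SE 0.102; edgeR adjusted p = 0.00924), with DDR2-plus 3 only just above PSC 2. Per kilobase of exon the synthases were close in PSC, at 23.1 CPM per kb for Papss2 and 30.9 for Papss1, and apart in DDR2-plus, at 69.1 and 40.4. Within a library, Papss2 had 1.81 to 2.36 counts for each Papss1 count in DDR2-plus and 0.760 to 1.04 in PSC, a 2.27-fold difference that depends on no scaling between libraries.

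The 250 bases before the annotated start (RefSeq, build GRCm38.p6, which shares mm10's coordinates) are printed for 3 of these genes and for the chondroitin sulfotransferase gene Chst11, because they rose together and lie on different chromosomes. Capitals mark the motifs searched on both strands: the GC box GGGCGG, the SOX-type hexamers ACAATG and ACAAAG, and the TATA box TATAAA; matches of 1 motif may overlap. Ugdh is chr5:65435843-65436092 on the minus strand, Slc35d1 chr4:103215177-103215426 on the minus strand, Papss2 (the upstream one of 2 starts) chr19:32595465-32595714 on the plus strand and Chst11 chr10:82985247-82985496 on the plus strand, each written 5′ to 3′ in the direction of the gene.
Ugdh: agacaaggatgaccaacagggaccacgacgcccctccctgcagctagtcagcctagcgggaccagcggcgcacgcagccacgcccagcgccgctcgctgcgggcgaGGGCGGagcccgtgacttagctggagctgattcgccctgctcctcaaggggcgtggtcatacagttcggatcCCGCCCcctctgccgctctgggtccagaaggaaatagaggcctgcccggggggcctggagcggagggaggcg
Slc35d1: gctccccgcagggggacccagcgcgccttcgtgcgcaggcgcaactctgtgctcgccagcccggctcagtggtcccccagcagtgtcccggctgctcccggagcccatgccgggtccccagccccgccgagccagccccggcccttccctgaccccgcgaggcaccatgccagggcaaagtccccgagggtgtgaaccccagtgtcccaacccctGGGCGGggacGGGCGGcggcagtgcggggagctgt
Papss2: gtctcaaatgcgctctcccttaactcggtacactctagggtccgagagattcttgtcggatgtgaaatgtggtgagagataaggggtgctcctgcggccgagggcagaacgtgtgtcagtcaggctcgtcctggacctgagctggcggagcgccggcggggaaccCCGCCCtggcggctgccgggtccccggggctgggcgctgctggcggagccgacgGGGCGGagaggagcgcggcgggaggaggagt
Chst11: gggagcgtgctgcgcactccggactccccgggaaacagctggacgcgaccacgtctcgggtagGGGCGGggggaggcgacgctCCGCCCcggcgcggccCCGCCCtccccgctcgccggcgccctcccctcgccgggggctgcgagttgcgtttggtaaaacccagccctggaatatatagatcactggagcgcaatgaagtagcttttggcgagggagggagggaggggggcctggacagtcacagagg
Each of the 4 windows holds the GC box, 2 matches in Ugdh, Slc35d1 and Papss2 and 3 in Chst11, and none holds either SOX-type hexamer or the TATA box. GENCODE M21 puts the 5′ end of Ugdh further upstream than RefSeq, at 65435949. Bases 65435843 to 65435949 of its window, with the CCGCCC match, thus lie inside that annotated gene. The 4 windows are rich in G and C, from 67.6% in Papss2 to 75.2% in Slc35d1. For Papss2, GENCODE M21 puts the 5′ end further downstream, at 32595790, and sequence just past the printed start was not found in its transcripts. The window of the other Papss2 start (chr19:32619755-32620004), not printed, held 0 matches of the motifs and 43.2% G and C. Sequence past that start was found in the transcripts. The table of promoters matched 31 of the 41 genes with 39 starts. The GC box was found in 24 of these 39 windows, those of Chst14 and Dse among them, which were lower in DDR2-plus, and in 32.7% of 32851 windows of the same length over all genes. A SOX-type hexamer was found in 2 of the 39, at Xylt2 and Chst3, and in 25.2% of all windows. The TATA box was found in 2 of the 39, at Sulf2 and Hs6st2, and in 12.4% of all windows. These are matches of letters only.

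The linker is laid down by 5 enzymes in turn, beginning with a xylosyltransferase. Xylt1 (chromosome 7, 117380979 to 117673580, plus strand), which encodes one of the pair of xylosyltransferases and is mutated in a short-stature skeletal dysplasia, had the largest fold change of all 41 genes. In DDR2-plus 1 to 5 Xylt1 measured 73.9, 90.6, 51.1, 92.1 and 73.5 CPM, and in PSC 1 to 5 it measured 19.1, 15.8, 17.4, 28.7 and 16.1 CPM. It was 3.93-fold higher (log2 fold change 1.97, SE 0.193; edgeR adjusted p = 6.81e-06), and the groups were far apart although PSC 4 stood above the other PSC libraries and DDR2-plus 3 below its own. Xylt2, the gene of the other xylosyltransferase, did not pass, with 50.8 ± 2.28 CPM against 52.5 ± 5.40 CPM in PSC (edgeR adjusted p = 0.695). Counts of Xylt1 per count of Xylt2 were 0.940 to 1.86 in DDR2-plus and 0.278 to 0.593 in PSC, 4.06-fold apart. Per kilobase of exon, Xylt2 was the higher of the pair in both populations, at 12.8 and 13.2 CPM per kb against 7.90 and 2.01 for Xylt1. That order depends on the exon lengths used: by CPM alone Xylt1 was the higher in DDR2-plus, at 76.2 against 50.8 CPM.

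The remaining linker genes did not pass. B4galt7 and B3galt6, the genes of the galactosyltransferases that add the next sugars, were at 51.9 ± 4.41 and 19.8 ± 2.28 CPM in DDR2-plus and 49.5 ± 7.08 and 17.2 ± 3.54 CPM in PSC. B3gat3, the glucuronosyltransferase that completes the linker, was at 61.3 ± 4.74 and 62.2 ± 6.14 CPM. With library size alone all 3 passed as higher (log2 fold changes of 0.34, 0.47 and 0.25; edgeR adjusted p of 0.0191, 0.0207 and 0.0289), and over the 17 alternatives their adjusted p reached 0.974, 0.582 and 0.987. Thus 1 of 5 linker genes was higher and 0 lower, with a branch median of 0.07. From the further genes of this step, both were higher: Fam20b, the kinase that phosphorylates the linker xylose, stood at 241 ± 38.8 against 85.9 ± 20.4 CPM and Pxylp1, the phosphatase that removes that phosphate, at 60.1 ± 7.61 against 49.8 ± 1.86 CPM (edgeR adjusted p = 1.68e-05 and 0.0311). The call of Pxylp1 was lost without DDR2-plus 2, 4 or 5 and without PSC 3, 4 or 5, with an adjusted p of up to 0.0949.

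Chondroitin chains are begun by an N-acetylgalactosaminyltransferase and lengthened by the synthase and its partners. Csgalnact1 (chromosome 8, 68356781 to 68735146, minus strand) encodes the initiating enzyme best known from cartilage. Levels of Csgalnact1 were 181, 199, 124, 195 and 184 CPM in DDR2-plus 1 to 5 and 66.3, 43.2, 30.2, 54.9 and 42.6 CPM in PSC 1 to 5. It was 3.73-fold higher (log2 fold change 1.90, SE 0.192; edgeR adjusted p = 8.55e-06). Its relative Csgalnact2 was at 43.2 ± 8.13 and 46.8 ± 8.31 CPM without a call (edgeR adjusted p = 0.582). PSC libraries had 0.596 to 1.66 Csgalnact1 counts per Csgalnact2 count and DDR2-plus libraries 3.83 to 4.92, a 4.13-fold difference.

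Genes of the polymerizing enzymes showed small differences or none that passed. Chsy1 and Chsy3, the genes of chondroitin synthases, were at 48.3 ± 5.38 and 20.9 ± 2.65 CPM in DDR2-plus and 52.3 ± 4.15 and 20.6 ± 4.85 CPM in PSC (edgeR adjusted p = 0.360 and 0.928). Chpf, the polymerizing factor that works with them, was by level per length the most abundant gene of this branch, and it was 1.26-fold lower at 262 ± 19.7 against 331 ± 29.2 CPM (log2 fold change -0.33, SE 0.0786; edgeR adjusted p = 0.00472). That call was lost with library size alone, where the log2 fold change came to -0.06 and edgeR's adjusted p to 0.527, the highest of 17 alternatives, the lowest being 0.000504. Chpf2, a relative that shares 44.1% of its exonic bases with other annotated genes, Smarcd3 and Mir671, was at 188 ± 1.89 and 208 ± 29.4 CPM without a call (edgeR adjusted p = 0.236), and the share of its reads that is theirs is uncertain. Without PSC 5, Chpf2 was called lower (log2 fold change -0.23; edgeR adjusted p = 0.00870; highest of 17 alternatives 0.425). In all, 1 of 6 genes of the branch was higher and 1 lower, with a median of -0.11.

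**Figure D2:**
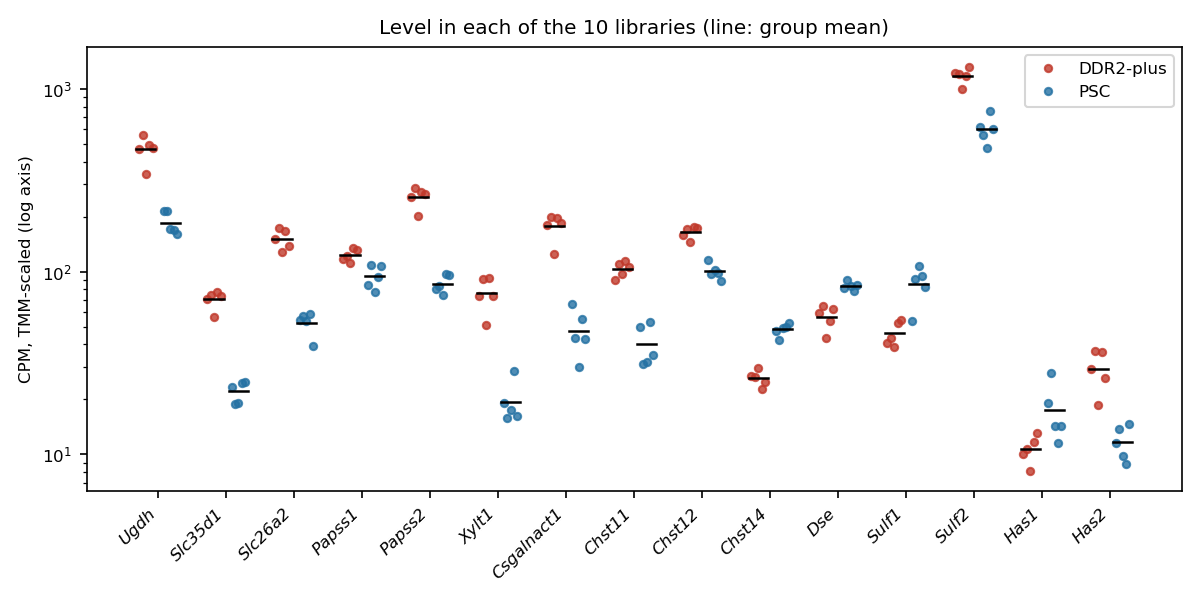
Level of 15 members in each library (vertical axis, TMM-scaled CPM on a log axis; red points are the 5 DDR2-plus and blue points the 5 PSC libraries, black lines are group means). The precursor genes, Xylt1, Csgalnact1, Chst11, Chst12, Sulf2 and Has2 lie higher in DDR2-plus with no overlap, Chst14 and Dse lie lower with no overlap, and the ranges of Sulf1 and Has1 overlap.

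The enzymes that sulfate and shape chondroitin and dermatan went both ways, with 3 of 9 higher, 3 lower and 3 without a call. Chst11 (chromosome 10, 82985498 to 83195900, plus strand), the main chondroitin 4-O-sulfotransferase of growth plate cartilage, rose most. The DDR2-plus libraries 1 to 5 held Chst11 at 90.4, 109.7, 97.3, 114 and 106 CPM, the PSC libraries 1 to 5 at 49.9, 31.02, 31.98, 52.8 and 34.99 CPM. It was 2.58-fold higher (log2 fold change 1.37, SE 0.153; edgeR adjusted p = 1.92e-05). Chst12 (chromosome 5, 140505550 to 140525724, plus strand) encodes a second enzyme that sulfates the same position. Chst12 was at 159, 171, 145, 176 and 173 CPM in DDR2-plus libraries 1 to 5 and at 116, 96.6, 102, 98.04 and 89.1 CPM in PSC libraries 1 to 5. Its rise was 1.64-fold (log2 fold change 0.71, SE 0.0828; edgeR adjusted p = 2.57e-05). Per kilobase Chst12 was the higher of the pair, at 69.8 and 42.5 CPM per kb against 18.7 and 7.26. Counts of Chst11 per Chst12 count were 0.569 to 0.671 in DDR2-plus and 0.313 to 0.539 in PSC, 1.60-fold apart.

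Of 3 genes specific to dermatan sulfate, 2 moved the other way and the third did not pass. Dermatan is made from chondroitin by an epimerase that turns glucuronic into iduronic acid, and Chst14 (chromosome 2, 118926496 to 118928585, plus strand) encodes the 4-O-sulfotransferase that acts on that product. In DDR2-plus 1 to 5 Chst14 measured 26.96, 26.5, 29.7, 22.8 and 24.8 CPM, and in PSC 1 to 5 it measured 47.4, 42.3, 49.2, 50.03 and 52.3 CPM. It was 1.84-fold lower in DDR2-plus (log2 fold change -0.88, SE 0.0937; edgeR adjusted p = 1.26e-05). Dse (chromosome 10, 34151393 to 34207715, minus strand), the gene of the epimerase, followed. Levels of Dse were 58.96, 64.8, 43.4, 53.8 and 62.5 CPM in DDR2-plus 1 to 5 and 81.3, 89.6, 82.9, 78.7 and 84.9 CPM in PSC 1 to 5. It was 1.47-fold lower (log2 fold change -0.56, SE 0.101; edgeR adjusted p = 0.000810). Dsel, the gene of the related epimerase, missed the threshold with 33.5 ± 6.29 CPM against 44.3 ± 10.1 CPM in PSC (edgeR adjusted p = 0.0764). Dsel was called lower when DDR2-plus 2 (edgeR adjusted p = 0.0381) or PSC 5 (0.0193) was left out, and over 17 alternatives the highest adjusted p was 0.519. Ust, the 2-O-sulfotransferase of uronic acid, was at 72.3 ± 4.84 and 62.9 ± 15.1 CPM without a call (edgeR adjusted p = 0.321), and passed as higher with library size alone (adjusted p = 0.0195; highest of 17 alternatives 0.603).

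Chst13, a further 4-O-sulfotransferase gene, was 2.35-fold lower (log2 fold change -1.24, SE 0.336; edgeR adjusted p = 0.0111), with 4.16 to 16.97 CPM in the DDR2-plus libraries and 12.8 to 25.2 CPM in the PSC libraries, so that DDR2-plus 3, the highest of its group, lay within the PSC range. Chst15, which adds a second sulfate at position 6 to an already sulfated residue, was 1.21-fold higher at 31.2 ± 1.59 against 25.9 ± 1.16 CPM (log2 fold change 0.27, SE 0.0804; edgeR adjusted p = 0.0178). Its groups did not overlap, but the call was lost without DDR2-plus 2 (edgeR adjusted p = 0.0619), and the lowest adjusted p over 17 alternatives was 0.000168. Of its exonic bases 17.9% are shared with the antisense gene Gm10584, whose reads cannot be told apart here. Chst3, the chondroitin 6-O-sulfotransferase gene mutated in a spondyloepiphyseal dysplasia, was low and uneven, with 4.68, 0.734, 0.933, 1.36 and 1.24 CPM in DDR2-plus 1 to 5 and 0.980, 1.55, 0.0463, 9.46 and 4.38 CPM in PSC 1 to 5. PSC 3, with 2 counts, was lowest and PSC 4, with 413 counts, highest, so that the PSC range enclosed the DDR2-plus range, and no difference passed (edgeR adjusted p = 0.488). Chst7, the other 6-O-sulfotransferase gene, was low as well, at 1.11 ± 0.763 and 2.21 ± 1.99 CPM (edgeR adjusted p = 0.243).

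Of the 4 genes of the heparan chain branch, 1, Extl2, was higher and 0 lower, with a median of -0.10. Ext1 and Ext2, which together form the heparan polymerase and whose loss causes multiple exostoses, were at 77.2 ± 23.1 and 230.4 ± 12.3 CPM in DDR2-plus and 90.6 ± 20.3 and 224 ± 12.8 CPM in PSC (log2 fold changes of -0.23 and 0.04; edgeR adjusted p = 0.387 and 0.652). The range of Ext2 was narrow, 219 to 250.5 CPM in the DDR2-plus libraries and 213 to 244 CPM in the PSC libraries, although with library size alone Ext2 passed as higher (log2 fold change 0.31; edgeR adjusted p = 0.00176; highest of 17 alternatives 0.987). Extl2, whose N-acetylhexosaminyltransferase can cap a phosphorylated linker, was 1.39-fold higher at 50.9 ± 8.01 against 36.7 ± 2.37 CPM without overlap (log2 fold change 0.47, SE 0.109; edgeR adjusted p = 0.00414). Extl3, the enzyme that starts heparan chains, was at 38.3 ± 2.21 and 47.9 ± 9.82 CPM (edgeR adjusted p = 0.0676) and passed as lower without PSC 1 (0.00607), the highest of 17 alternatives being 0.784.

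Among the 7 genes that modify heparan, 1 was higher, 1 lower and 5 did not pass, with a median of -0.31. Glce, the epimerase that makes iduronic acid in heparan, was 1.61-fold higher (log2 fold change 0.69, SE 0.183; edgeR adjusted p = 0.00944). The DDR2-plus libraries 1 to 5 held Glce at 64.99, 65.4, 34.9, 52.6 and 57.5 CPM, the PSC libraries 1 to 5 at 24.9, 42.4, 36.7, 38.5 and 28.2 CPM. The groups overlapped only through DDR2-plus 3, which lay below PSC 2, 3 and 4. Hs3st1, the 3-O-sulfotransferase that makes the antithrombin-binding site, was 1.78-fold lower at 10.1 ± 1.23 against 17.97 ± 6.63 CPM (log2 fold change -0.83, SE 0.229; edgeR adjusted p = 0.0119), with overlap, and did not pass under library size alone (edgeR adjusted p = 0.0655, the highest of 17 alternatives, the lowest being 0.00273).

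The N-deacetylase and N-sulfotransferase genes Ndst1 and Ndst2, which begin heparan sulfation, were at 81.5 ± 8.88 and 22.2 ± 4.93 CPM in DDR2-plus and 99.8 ± 20.4 and 26.3 ± 4.41 CPM in PSC (edgeR adjusted p = 0.109 and 0.263). The 2-O-sulfotransferase gene Hs2st1 was at 40.7 ± 6.77 and 50.4 ± 5.33 CPM, and the 6-O-sulfotransferase genes Hs6st1 and Hs6st2 at 13.3 ± 3.89 and 15.2 ± 1.76 against 22.1 ± 9.63 and 19.6 ± 7.52 CPM (edgeR adjusted p = 0.0639, 0.0576 and 0.224). Several of these calls changed when 1 library was left out. Without PSC 1, Ndst1, Hs2st1 and Hs6st1 passed as lower (edgeR adjusted p = 0.00778, 0.0467 and 0.0276). Hs6st1 also passed without DDR2-plus 1 (0.0348) or PSC 2 (0.0417) and in DESeq2 (0.0347), and Hs2st1 without DDR2-plus 4 (0.0395). The highest adjusted p over 17 alternatives was 0.927 for Ndst1, 0.817 for Hs2st1 and 0.212 for Hs6st1.

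Once on the cell surface, heparan sulfate is edited by a pair of 6-O-endosulfatases, and their genes went in opposite directions. Sulf2 (chromosome 2, 166073089 to 166155663, minus strand) was by level per length the most abundant of the 41 genes in both populations, at 201 and 103 CPM per kb. Sulf2 was at 1220.4, 1206, 996, 1176 and 1316 CPM in DDR2-plus libraries 1 to 5 and at 617, 559.8, 472, 758 and 606 CPM in PSC libraries 1 to 5. It was 1.96-fold higher in DDR2-plus (log2 fold change 0.97, SE 0.115; edgeR adjusted p = 3.01e-05), with no overlap. Sulf1 (chromosome 1, 12692277 to 12861192, plus strand) was 1.87-fold lower (log2 fold change -0.91, SE 0.163; edgeR adjusted p = 0.000754). In DDR2-plus 1 to 5 Sulf1 measured 40.8, 43.5, 38.8, 52.1 and 54.05 CPM, and in PSC 1 to 5 it measured 53.7, 91.6, 107, 94.1 and 82.8 CPM. PSC 1, at 53.7 CPM, lay within the DDR2-plus range, and the other PSC libraries lay above it. For each Sulf1 count there were 22.6 to 29.9 Sulf2 counts in DDR2-plus and 4.41 to 11.5 in PSC, a 3.64-fold difference.

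The hyaluronan synthases were also split, with 1 of 3 higher and 1 lower. Has2 (chromosome 15, 56665627 to 56694539, minus strand), the main synthase of developing limb and heart, was 2.51-fold higher (log2 fold change 1.33, SE 0.199; edgeR adjusted p = 0.000191). Levels of Has2 were 29.4, 36.8, 18.5, 36.2 and 26.2 CPM in DDR2-plus 1 to 5 and 11.6, 13.7, 9.82, 8.88 and 14.6 CPM in PSC 1 to 5. Every DDR2-plus library was above every PSC library. Has1 (chromosome 17, 17843323 to 17855205, minus strand) was 1.62-fold lower (log2 fold change -0.70, SE 0.228; edgeR adjusted p = 0.0281) with overlapping groups. The DDR2-plus libraries 1 to 5 held Has1 at 10.01, 10.7, 8.08, 11.7 and 13.05 CPM, the PSC libraries 1 to 5 at 19.03, 27.8, 14.3, 11.5 and 14.2 CPM. This call was lost without DDR2-plus 1 or 3, without PSC 1 or 2 and with library size alone (edgeR adjusted p between 0.0539 and 0.141), the lowest of 17 alternatives being 0.0126. Has3 was at or near 0, with 0 counts in DDR2-plus 3, PSC 1 and PSC 5 and at most 1.15 CPM, in PSC 2, and no difference was detectable at this level (edgeR adjusted p = 0.917). A count of 0 allows up to 3 counts in a library, and that limit covers counting error only.

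Related enzymes were then set against each other within each library, which asks whether a pair moved differently and needs no scaling between libraries. Of 11 pairs compared, 5 differed between the populations: Xylt1 to Xylt2, Csgalnact1 to Csgalnact2, Chst11 to Chst12, Papss2 to Papss1 and Sulf2 to Sulf1. Each of them reached the smallest p that 5 against 5 can give (exact permutation test of the mean log2 ratio, two-sided p = 0.00794, adjusted over the 11 pairs 0.0175), and in each all 5 DDR2-plus ratios lay above all 5 PSC ratios. The mean log2 ratio differed by 2.02, 2.05, 0.68, 1.18 and 1.87 in that order. Each of these pairs holds a member whose groups were already apart, so the ratios are not independent of those calls. The same holds for Chpf2 to Chpf, Chst3 to Chst15 and Has3 to Has2, whose ratios overlapped. Groups were apart in 30.1% of all tested genes taken singly, and ratios of other gene pairs were not computed. Chsy3 to Chsy1, Chpf2 to Chpf, Ndst2 to Ndst1 and Hs6st2 to Hs6st1 overlapped, with differences of the mean log2 ratio of 0.16, 0.20, 0.02 and 0.39, where the SD of the 5 log2 ratios was 0.34, 0.10, 0.44 and 0.48 in DDR2-plus and 0.39, 0.31, 0.26 and 0.90 in PSC (exact permutation test, two-sided p = 0.516, 0.183, 0.976 and 0.397). Chst3 to Chst15 and Has3 to Has2 differed by -0.15 and -0.33, well within an SD of 1.02 to 3.02 between libraries of a group (exact permutation test, two-sided p = 0.913 and 0.857).

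**Figure D3:**
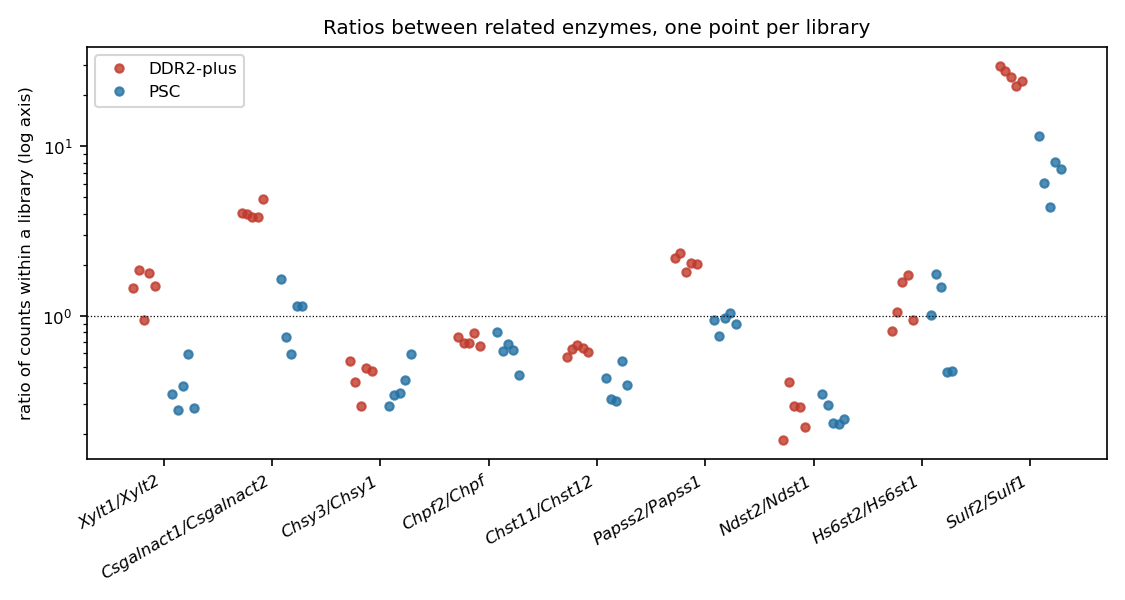
Ratio of the counts of 2 related enzymes within a library (vertical axis, log axis; 1 point per library, red for DDR2-plus, blue for PSC; 0.5 was added to each count; the dotted line marks equal counts). The 5 pairs named as different separate completely, and the other 4 pairs shown overlap; the 2 pairs with the widest spread between libraries, Chst3 to Chst15 and Has3 to Has2, are left out.

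The DDR2-plus libraries were not alike in these genes. Of the 14 members that were higher, 12 had their lowest DDR2-plus value in DDR2-plus 3, and 7 had their highest in DDR2-plus 2 and 5 in DDR2-plus 4. DDR2-plus 3 also had the lowest sum of the cartilage markers in its group (104718 CPM) and the highest sum of the osteoblast markers (107915 CPM), while DDR2-plus 2 and 4 had the highest cartilage sums (142768 and 144064 CPM). Among PSC libraries, PSC 4 had the highest cartilage sum (32547 CPM) and the highest value of 5 of the 14 genes. PSC 3 had the lowest sum (13961 CPM) and, like PSC 2, the lowest value of 4. The other highest values fell in PSC 1, 2, 3 and 5, for 3, 2, 1 and 3 genes. The other lowest values fell in PSC 1, 4 and 5, for 2, 1 and 3 genes. Such counts were not made over all genes called higher, so they cannot be called particular to the 14 members. The part of cartilage cells in these levels was not tested. The cartilage markers had a median log2 fold change of 2.35, and the 14 members ranged from 0.27 to 1.97. Without DDR2-plus 3, 14 members were higher and 6 lower, the lost one being Has1.

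Further genes of the pathway, on lists drawn up beside the 41 members, were examined with the same fit: 91 were in the table, 86 were tested, 37 were higher and 20 lower. That is 43% and 23.3% of those tested, where 20.1% and 19% of all tested genes were called. With library size alone 52 and 16 passed (60.5% and 18.6%), where 35.2% and 9.98% of all tested genes did. In the further donor supply list 11 of 19 genes were higher, 0 were lower and 8 were not called. Its median log2 fold change was 0.37, against 1.52 for the precursor supply members. Gfpt2 and Gfpt1, the genes of the enzymes that commit fructose-6-phosphate to hexosamines, were 3.58-fold and 2.06-fold higher (223 ± 37.8 against 62.4 ± 14.5 CPM and 97.2 ± 12.9 against 47.2 ± 11.1 CPM); the higher edgeR adjusted p of the pair was 0.000104. Of 10 further heparan enzyme genes, 7 were tested and 6 of these were higher. Among the 6, Ndst3 was low and uneven, at 2.11 ± 2.63 against 0.300 ± 0.303 CPM with overlapping groups. Hs3st2 was low as well, at 0.943 ± 0.444 against 0 CPM. With 0 counts in PSC, Hs3st2 passed the filter on low counts through DDR2-plus alone and could only be called higher. It is included in the 6 and in the 37. Extl1, a glycosyltransferase of the exostosin family, was 3.64-fold higher at 87.4 ± 9.03 against 24.01 ± 4.80 CPM, and the 3-O-sulfotransferase genes Hs3st3b1 and Hs3st3a1 were 3.94-fold and 2.66-fold higher (the highest edgeR adjusted p of the 3 was 0.000290), a direction opposite to that of Hs3st1. Hs3st3a1 and Hs3st3b1 are close paralogs, so the division of reads between them is uncertain. Hs3st3a1 shares 32.9% of its exonic bases with F930015N05Rik on the opposite strand.

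Keratan sulfate, a sulfated lactosamine chain carried on aggrecan and on small leucine-rich proteoglycans, was split, with 3 of 7 enzyme genes higher and 3 lower. Chst1, a galactose 6-O-sulfotransferase, was 3.36-fold higher at 41.9 ± 6.94 against 12.5 ± 3.15 CPM, B3gnt2 2.87-fold and B4galt4 1.74-fold, whereas Chst5, a glucosamine 6-O-sulfotransferase, was 6.45-fold lower at 6.44 ± 1.36 against 41.6 ± 3.87 CPM and B4galt1 1.76-fold (the highest edgeR adjusted p of the 5 was 0.000841). B3gnt7 was 1.86-fold lower with overlap (edgeR adjusted p = 0.0291); it lost its call without DDR2-plus 1 or 4, without PSC 1 and with library size alone, with an adjusted p of up to 0.0973. B3gnt2 shares 66% and B3gnt7 12.6% of the exonic bases with other annotated genes. Of the breakdown genes, 3 of 19 were higher, 5 lower and 11 without a call. Cemip2, a cell-surface hyaluronidase gene, was 1.64-fold higher, Hyal2 1.32-fold and Idua 1.46-fold, and the lysosomal Arsb and Naglu, which take sulfate or hexosamine off the chains, were 1.52-fold and 1.46-fold lower (the highest edgeR adjusted p of the 5 was 0.00954). Arsb shares 39.9% of its exonic bases with other annotated genes.

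The proteins that carry the chains divided as well. Of 11 chondroitin or dermatan sulfate core proteins, 6 were higher and 4 lower: besides Acan, the aggrecan gene (2673 ± 356 against 553 ± 109 CPM), Epyc and Cspg4 were 3.42-fold and 1.94-fold higher, and Dcn, the decorin gene, Ptprz1 and Vcan, the versican gene, were 3.28-fold, 2.86-fold and 2.27-fold lower (the highest edgeR adjusted p of the 6 was 7.02e-05). Epyc shares 40.6% of its exonic bases with Gm10754. Of 12 heparan sulfate core proteins tested, 4 were higher and 4 lower. Sdc4, the syndecan-4 gene, was 4.40-fold higher at 806 ± 130.4 against 183 ± 39.3 CPM, Gpc6 1.59-fold and Sdc3 1.33-fold, and Col18a1, Gpc3 and Gpc4 were 8.43-fold, 2.82-fold and 2.20-fold lower (the highest edgeR adjusted p of the 6 was 0.00247). Of 8 hyaluronan-binding genes tested, 2 were higher and 4 lower, with Hapln1, the link protein gene, at 1441 ± 262 against 252 ± 40.9 CPM, Hmmr 2.17-fold higher, and the hyaluronan receptor gene Cd44, Hapln4 and Tnfaip6, whose product loads heavy chains onto hyaluronan, 4.51-fold, 3.54-fold and 2.30-fold lower (the highest edgeR adjusted p of the 5 was 0.00418).

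**Figure D4:**
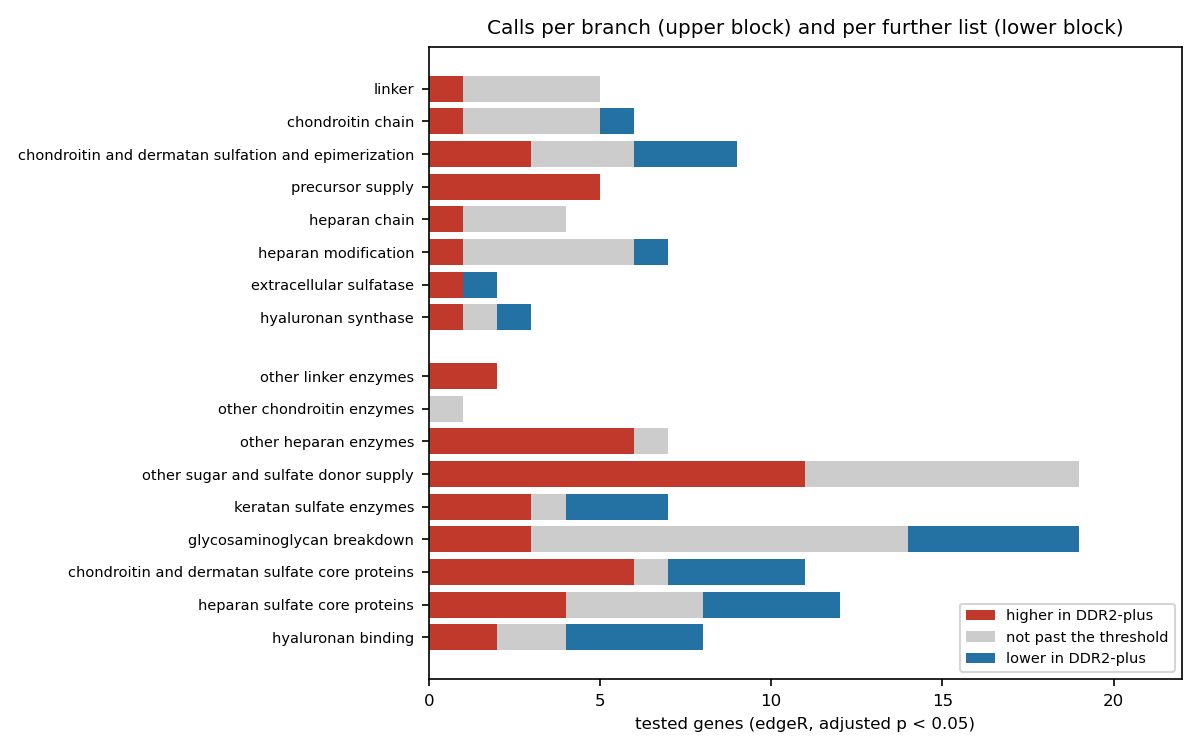
Number of tested genes in each branch of the 41 members (upper block) and in each further list (lower block) that were higher (red), lower (blue) or not past the threshold (grey; edgeR adjusted p of 0.05; horizontal axis starts at 0). Both donor supply lists have no blue part, with 5 of 5 and 11 of 19 genes higher, whereas the sulfation, core protein and keratan lists hold both colours.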

How the data were processed

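The authors deposited 1 table of whole-number read counts per gene symbol for 10 libraries, 5 DDR2-plus and 5 PSC, made per the labels' protocols with SMART-Seq v4 from 1 ng of RNA and the unstranded Nextera XT kit. The submitters' processing notes name mm10 and DESeq; for the aligner, the counter and the gene models, the entry is "not given in the sources used here". Depth was 43419129 to 62021992 counts a library.

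Counts were fitted with edgeR 4.0.16 in R 4.3.3 (quasi-likelihood test, TMM factors, filterByExpr, no covariate, Benjamini-Hochberg over all tested genes, threshold 0.05); limma 3.58.1 and DESeq2 1.42.0 served as alternatives, and the script was tested on simulated data. A fold change sets DDR2-plus over PSC, and its SE is the log2 fold change divided by the square root of the F statistic. Ratios of 11 pairs added 0.5 to each count. Exon lengths and positions are from GENCODE M21. A length takes all annotated exons of a gene together, so an order by level per kilobase depends on that choice. No 2 libraries agreed within sampling noise (chi-square per degree of freedom of at least 41.5).

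All 41 members are named; from each further list, up to 3 genes a direction with the smallest adjusted p and at least 5 CPM in the higher group; 2 of these are not reported here. Members and lists were chosen with earlier results of these data known, and the pairs were drawn from those members.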

Additional observations from a re-analysis of the deposited data

Results flagged for a closer look

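Among 178 groups of 5 values (each named gene and each pair, in each population), 11 had 1 library whose gap to its nearest neighbour was over 0.71 of the group's range; chance gives about 1 in 20 groups. In DDR2-plus 3, Csgalnact1 was low at 124 CPM (nearest 181) and Epyc at 198 CPM (nearest 226). In DDR2-plus 1, Chst3 was high at 4.68 CPM (nearest 1.36) and Ust low at 63.9 CPM (nearest 72.5). In PSC 4, Xylt1 was high at 28.7 CPM (nearest 19.1) and Ext1 at 126 CPM (nearest 86.2). In PSC 2, Has3 was high at 1.15 CPM (nearest 0.275) and Gfpt1 at 66.5 CPM (nearest 45.5). In PSC 5, Slc26a2 was low at 39.3 CPM (nearest 53.7), and in PSC 3 B3gnt2 was low at 18.6 CPM (nearest 25.4). The log2 ratio of Csgalnact1 to Csgalnact2 was high in DDR2-plus 5 at 2.30 (nearest 2.01).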

How the results depend on the processing

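Of the 21 members called, 17 kept their call and direction in all 17 alternatives of the fit; the exceptions were Chpf, Hs3st1, Chst15 and Has1. Library size alone gave 4 members lower in place of 7, and 5421 genes higher and 1538 lower in place of 3096 and 2926. It moved the branch medians to 0.34 (linker), 0.16 (chondroitin chain), -0.14 (chondroitin and dermatan sulfation), 1.79 (precursor supply), 0.18 (heparan chain), 0.30 (sulfatases) and 0.0592 (hyaluronan synthases), and B3gat3 turned from -0.02 to 0.25. Under limma-voom the sulfation median was 0.13 and the hyaluronan median 0.99. Leaving out 1 library, those medians ran from -0.51 to 0.0393 and from -0.68 to 1.39. Chpf2 to Chpf ran from 0.0774 to 0.29, passing without PSC 1 (exact permutation test, adjusted p = 0.0291).

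Deviations of same-numbered libraries from their group means correlated by 0.00119 to 0.108. Correlations between differently numbered libraries were not computed, so these values cannot decide whether the numbers pair the libraries. The main fit left the numbers out. With the number as a replicate block, 13 members were higher and 8 lower: Chst15 lost its call (edgeR adjusted p = 0.0541) and Hs2st1 passed (0.0306). Of the further genes named, Pxylp1 (0.0583) and B3gnt7 (0.0666) lost theirs. The sulfation median was -0.19 and the hyaluronan median 0.57. The 5 ratio differences of 2.02, 2.05, 0.68, 1.18 and 1.87 could not pass under the block, since 5 sign flips allow no exact p below 0.0625 (adjusted 0.138). The causes were not tested. Depth limits Has3, with 0 to 51 counts a library.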

Other observations

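Hs3st2, a heparan 3-O-sulfotransferase gene chosen here after its values were seen, had 0 counts in all 5 PSC libraries and 0.384 to 1.42 CPM in the DDR2-plus libraries, where neuronal, glial and pineal markers were also higher. The part of those cells in its level was not tested.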
